A study of Mus musculus with 6 samples.

Results

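The genes described here encode pre-mRNA splicing factors and heterogeneous nuclear ribonucleoproteins (hnRNPs). They were chosen by name alone. A gene was a member when it was annotated as protein coding and its symbol began with Srsf, Sf3a or Sf3b and a digit, Prpf and a digit, Hnrnp, Snrp or U2af. This took 68 of the 54532 genes in the table, and 62 of them averaged 1 FPKM or more across all 6 libraries and could be tested. FPKM stands for fragments per kilobase of gene length, scaled for each library. Here the scaling was by the authors' divisor, described below, and not by the plain fragment total. The name rule leaves out the Snrnp genes, which are given as context.

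The cells were macrophages that had been derived over 7 days of culture from marrow taken from bones of the inbred mouse strain C57BL/6J. The treated group then received recombinant CCL3, a chemokine that recruits leukocytes, for 3 days, and the other group is labelled control. The design text can also be read as CCL3 being added from the start of culture. No source used here states how control cells were kept over the last days, the dose of CCL3, the sex and age of the mice, or whether each library had its own mouse or culture. The p-values therefore measure the spread between these libraries only, which may be technical. There were 3 control and 3 CCL3 libraries, made from total RNA with a kit for mRNA sequencing, with 17399194 to 18609737 fragments each. All 9 macrophage markers examined passed the filter, with Csf1r between 559 and 922 FPKM and Cd68 between 1205 and 1849 FPKM.

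Splicing removes introns from pre-mRNA. Small nuclear ribonucleoproteins (snRNPs) carry it out: U1 recognises the start of an intron, U2AF and U2 recognise its end and branch site, and the tri-snRNP then brings in the catalytic core. A ring of Sm proteins is shared by most snRNPs. SR proteins bind exons and mostly promote their inclusion, whereas hnRNPs coat pre-mRNA and often act against inclusion, besides roles in stability, export and translation. In macrophages, regulated splicing is known to shape the output of inflammatory genes.

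Splicing factor and hnRNP genes did not move as a block with CCL3. Of the 62 tested, 6 were higher and 7 were lower at an adjusted p of 0.05 (limma on log2(FPKM + 1), adjusted by the Benjamini-Hochberg method across every tested gene), and 49 did not pass. Among all 9218 tested genes 18% were higher and 14.5% were lower, against 9.68% and 11.3% of these genes. In this fit neither share of calls exceeded the background. The lower share did in some alternatives on the same values. It was 15.6% against 13.4% with a filter of 5 FPKM, and 19.4% against 18.4% with the replicate number as a block. Estimates were above 0 for 32 of the 62 genes, or 51.6%, against 50.4% of all tested genes. Their median on the log2 scale was 0.01, as it was over all tested genes. The genes that rose were Sf3b5, Sf3b4, Sf3a2, Snrpc, Hnrnpm and Hnrnpu, and those that fell were Hnrnpc, Snrpb2, Prpf38a, Hnrnpll, Snrpd3, Srsf1 and Snrpg. CCL3 and control libraries did not overlap for 27 of the 62 genes, 11 with CCL3 above and 16 with CCL3 below, where 24.6% and 24% of all tested genes separated in these directions.

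**Figure D1:**
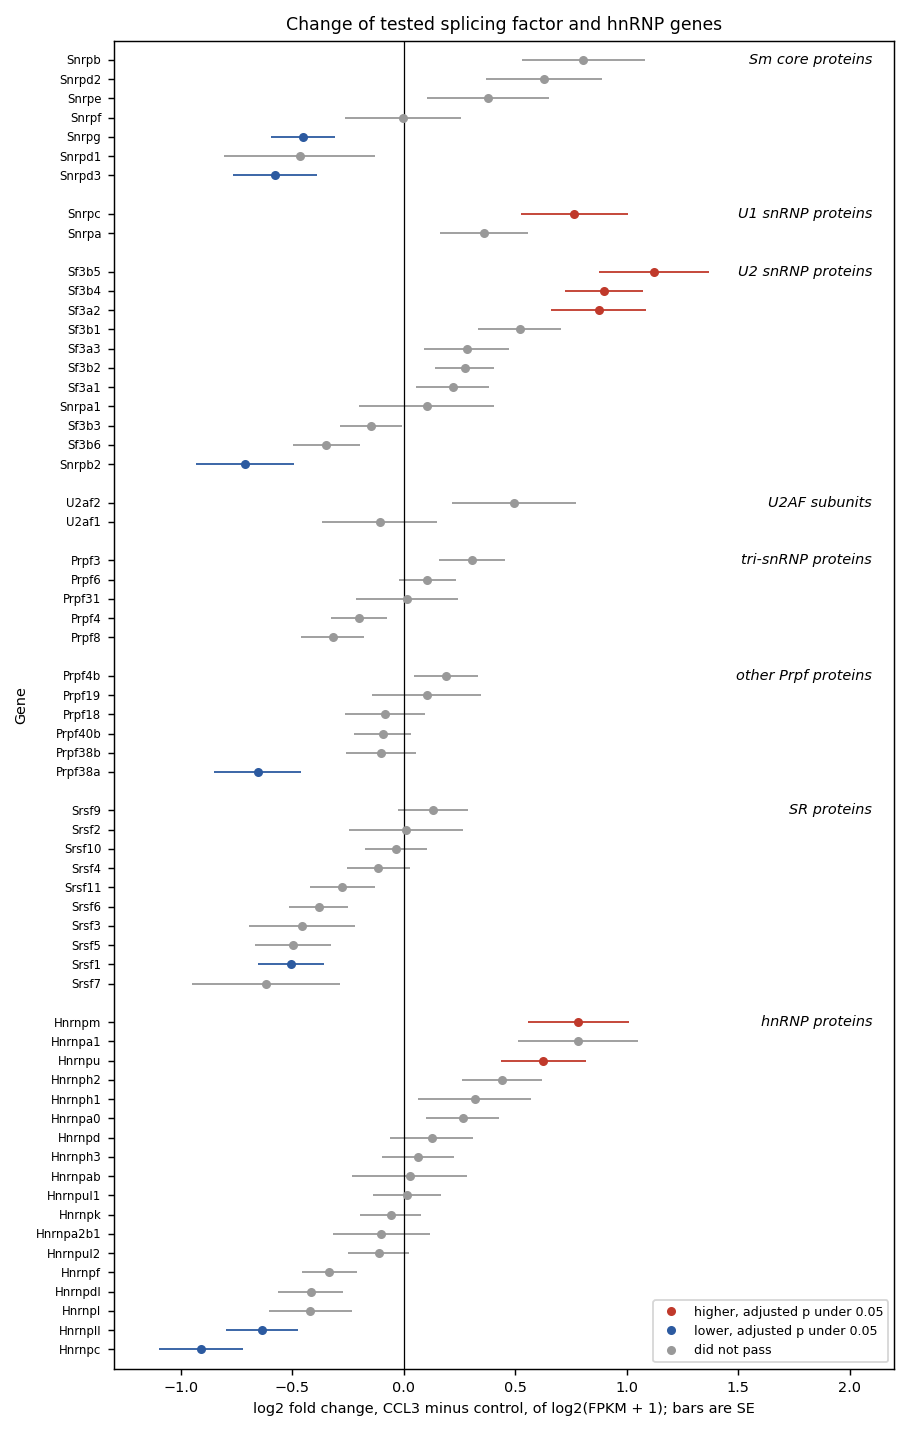
Log2 fold change (CCL3 minus control, x axis) with its standard error for 61 of the 62 tested genes, grouped by role; red and blue mark genes past an adjusted p of 0.05. The U2 snRNP block runs from Sf3b5 at 1.12 down to Snrpb2 at -0.71, and the hnRNP block from Hnrnpm at 0.78 down to Hnrnpc at -0.91.

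The sign of each of the 13 calls was kept under every alternative in which the gene could be tested, but the number of calls was not. Many of these alternatives could not change a sign. The groups did not overlap for any of the 13, so leaving out libraries or changing the pseudocount or filter had to keep it. The replicate block and median-ratio scaling gave the same log2 fold changes as the main fit. With plain fragment totals 2 of the 62 genes were higher and 20 lower, and with TPM scaling 1 was higher and 27 lower. With these scalings the median over all tested genes lay at -0.28 and -0.48 on the log2 scale, and that over the 62 genes at -0.31 and -0.51. Among all tested genes 1655 were higher and 1335 lower with FPKM as deposited, 803 and 3047 with plain totals, and 507 and 3986 with TPM scaling. On the log2 scale the 6 rises lay between 0.30 and 0.77 with plain totals and between 0.14 and 0.60 with TPM scaling, and the 7 falls between -1.24 and -0.79 and between -1.46 and -0.99. With no filter on low values Sf3b4 and Hnrnpc were the 2 calls left, 1.49% of the members in each direction. Of all genes tested that way, 5.45% were higher and 4.39% lower. Leaving out control replicate 1 left 2 genes higher and 1 lower, and leaving out control replicate 2 left 1 and 1, all among the 13. The other omissions also brought new calls. Without CCL3 replicate 3 there were 2 higher and 6 lower (2 and 5 of them among the 13). These were 3.23% and 9.68% of the members, against 11.9% and 8.93% of all tested genes. Without CCL3 replicate 1 there were 8 and 2 (5 and 2 among the 13), or 12.9% and 3.23% against 15.6% and 13.6%. Without CCL3 replicate 2 there were 5 and 4 (4 and 3), or 8.06% and 6.45% against 16.3% and 11.97%. Without control replicate 3 there were 9 and 5 (6 and 4 among the 13), or 14.5% and 8.06% against 20.3% and 13.9%.

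**Figure D2:**
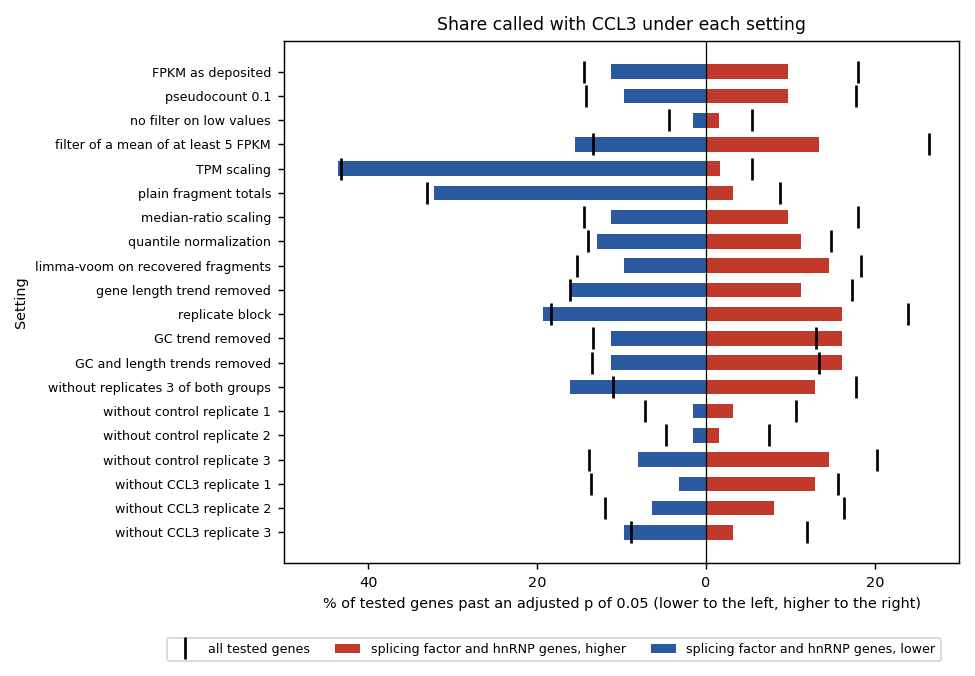
Percentage of tested splicing factor and hnRNP genes called lower (blue, left) or higher (red, right) with CCL3 under each setting, with black ticks for all tested genes. With FPKM as deposited the bars reach 11.3% and 9.68%, inside the ticks at 14.5% and 18%; with TPM scaling most calls are lower for both.

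To set the sequences beside the values, upstream regions are shown for the 2 genes with the largest rise and the 2 with the largest fall on the log2(FPKM + 1) scale among called genes in the RefSeq promoter table (build GRCm38.p6, the same assembly as mm10), from 250 bases before the RefSeq start to 1 base before it, on the strand of the gene. Sf3a2 and Hnrnpm rose, and Hnrnpc and Snrpb2 fell. Capitals mark matches on either strand to 6 motifs. The CCAAT box was searched by those letters, the GC box with the letters GGGCGG, and the core bound by factors of the ETS family with the letters CCGGAA. The TATA box was searched as the letters TATAAA, the E-box was searched as the letters CACGTG, and the core bound by the factor YY1 as the letters AAGATGGC. Matches were allowed to overlap. The regions are Sf3a2 at chr10:80798485-80798734 (+), Hnrnpm at chr17:33685459-33685708 (-), Hnrnpc at chr14:52104022-52104271 (-) and Snrpb2 at chr2:143062819-143063068 (+). The Sf3a2 and Hnrnpm regions lie inside the gene bounds given with the FPKM (80798198 to 80804924 and 33646233 to 33686860). They are upstream of the RefSeq start only. The Hnrnpc and Snrpb2 regions reach across the start of those bounds.
Sf3a2: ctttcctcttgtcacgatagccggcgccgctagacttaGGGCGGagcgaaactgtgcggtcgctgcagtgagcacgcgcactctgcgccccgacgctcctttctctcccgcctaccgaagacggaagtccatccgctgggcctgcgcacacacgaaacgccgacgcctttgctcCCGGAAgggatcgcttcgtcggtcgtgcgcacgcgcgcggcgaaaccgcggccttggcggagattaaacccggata
Hnrnpm: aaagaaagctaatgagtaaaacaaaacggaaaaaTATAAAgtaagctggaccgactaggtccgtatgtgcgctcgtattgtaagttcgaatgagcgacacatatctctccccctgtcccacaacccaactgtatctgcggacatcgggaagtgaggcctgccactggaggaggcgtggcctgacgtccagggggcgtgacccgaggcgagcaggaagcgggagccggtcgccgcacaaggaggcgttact
Hnrnpc: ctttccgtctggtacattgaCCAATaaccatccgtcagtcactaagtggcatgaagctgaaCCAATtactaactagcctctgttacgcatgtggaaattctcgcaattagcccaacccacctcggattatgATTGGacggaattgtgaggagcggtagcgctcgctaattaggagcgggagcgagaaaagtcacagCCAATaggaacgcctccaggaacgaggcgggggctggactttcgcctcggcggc
Snrpb2: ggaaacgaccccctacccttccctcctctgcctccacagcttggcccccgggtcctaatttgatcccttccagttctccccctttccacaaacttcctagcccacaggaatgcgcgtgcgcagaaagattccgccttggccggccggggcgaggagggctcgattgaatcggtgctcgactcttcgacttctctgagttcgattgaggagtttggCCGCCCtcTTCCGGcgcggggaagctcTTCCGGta

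The Hnrnpc region held 4 CCAAT boxes and no other searched motif, the Snrpb2 region 2 ETS cores and 1 GC box, the Sf3a2 region 1 ETS core and 1 GC box, and the Hnrnpm region 1 TATA box. The promoter table had entries for 59 of the 68 genes, in 80 windows of 300 bases, some of them alternative starts of 1 gene. An ETS core was found in 46.2% of these windows, against 29.8% of windows of tested genes and 14.9% of all 32851 windows. A CCAAT box was found in 47.5% against 37.9% and 37.4%, a GC box in 63.7% against 64.9% and 35.7%, and a TATA box in 8.75% against 6.45% and 13.6%. An E-box was found in 13.7% against 10.6% and 7.15%, and a YY1 core in 3.75% against 5.02% and 2.75%. These are matches of letters and not measured binding.

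U2 snRNP genes contributed 3 of the 6 rises and 1 of the 7 falls. Of 11 tested, 7 did not pass, and the median log2 fold change was 0.27, where 18% of all tested genes rose and 14.5% fell. The largest rise was that of Sf3b5, a small subunit of the SF3B complex, which clamps the branch site (ENSMUSG00000078348, chromosome 10, 13005343 to 13009183). It had 32.6, 28.3 and 49.7 FPKM in control replicates 1 to 3 and 73.3, 65.3 and 104 FPKM in CCL3 replicates 1 to 3. All CCL3 libraries lay above all control libraries, with control replicate 3 highest of its group. The mean rose from 36.9 ± 11.3 to 80.9 ± 20.4 FPKM (SD, n = 3 per group), a log2 fold change of 1.12 ± 0.25 SE (limma adjusted p = 0.0128). Without control replicate 2 the adjusted p was 0.0535, and with no filter on low values it was 0.0509.

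Sf3b4, which contacts the pre-mRNA beside the branch site, had 36.8, 41.9 and 52.1 FPKM in control and 81.3, 70.1 and 93.6 FPKM with CCL3 (ENSMUSG00000068856, chromosome 3, 96172332 to 96177564). The lowest CCL3 library stood well above the highest control library. Its log2 fold change was 0.90 ± 0.17 SE (limma adjusted p = 0.00869), and it passed in 18 of 19 alternatives, the exception being TPM scaling (0.37, adjusted p = 0.103). Sf3a2, a subunit of the SF3A complex that joins SF3B to the rest of U2, rose from 23.2 ± 6.35 to 42.9 ± 8.01 FPKM (SD, n = 3 per group), a log2 fold change of 0.87 ± 0.21 SE (limma adjusted p = 0.0182). Its libraries stood at 19.0, 20.1 and 30.5 FPKM in control and 40.5, 36.4 and 51.9 FPKM with CCL3, without overlap. Sf3a2 has the highest GC content of the called genes, at 62.2% of its longest transcript, and after removal of the GC trend its log2 fold change was 0.23 (adjusted p = 0.262). It also shares 16.1% of its exonic length with the opposite-strand gene Plekhj1, which averaged 35.5 FPKM in control and 94.8 FPKM with CCL3. No source used here states whether the authors' counting used strand, so reads of this pair cannot be told apart. The call of Sf3a2 was lost when control replicate 1, control replicate 2 or CCL3 replicate 3 was left out, at adjusted p = 0.0619, 0.0757 and 0.0541. Plain totals (0.53, adjusted p = 0.0612) and TPM scaling (0.36, adjusted p = 0.164) also ended it.

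The fall in this role was Snrpb2, whose product binds a stem loop of U2 RNA. It had 9.16, 7.90 and 6.01 FPKM in control and 3.09, 5.71 and 4.27 FPKM with CCL3, and the groups were close but did not overlap. The log2 fold change was -0.71 ± 0.22 SE (limma adjusted p = 0.0397). That call was lost without control replicate 1 or 2 or CCL3 replicate 1 or 3 (adjusted p = 0.127, 0.124, 0.0973 and 0.0883), and with quantile normalization (-0.65, adjusted p = 0.0634). Snrpa1, the partner of Snrpb2 on the U2 particle, ranged from 3.16 to 4.62 FPKM in control and from 2.70 to 7.19 FPKM in the CCL3 group, which did not pass at 0.10 ± 0.30 SE on the log2 scale.

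Sf3b1, the scaffold of SF3B and a gene often mutated in myeloid neoplasms, had 3.49, 2.95 and 3.08 FPKM in control and 3.64, 6.22 and 5.37 FPKM with CCL3. The groups did not overlap, but CCL3 replicate 1 stood close to control, and the log2 fold change of 0.52 ± 0.18 SE did not pass (limma adjusted p = 0.0628). Without CCL3 replicate 1 it did (0.70, adjusted p = 0.0177), but not without any other single library (adjusted p from 0.104 to 0.189). The remaining SF3 genes also did not pass: Sf3b2 at 0.27 ± 0.13 SE, Sf3a3 at 0.28 ± 0.19 SE, Sf3a1 at 0.22 ± 0.16 SE, Sf3b3 at -0.15 ± 0.14 SE and Sf3b6, which touches the branch site adenosine, at -0.35 ± 0.15 SE on the log2 scale. Sf3b2 was the most abundant U2 gene, between 74.5 and 84.2 FPKM in control and between 87.7 and 104 FPKM with CCL3.

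**Figure D3:**
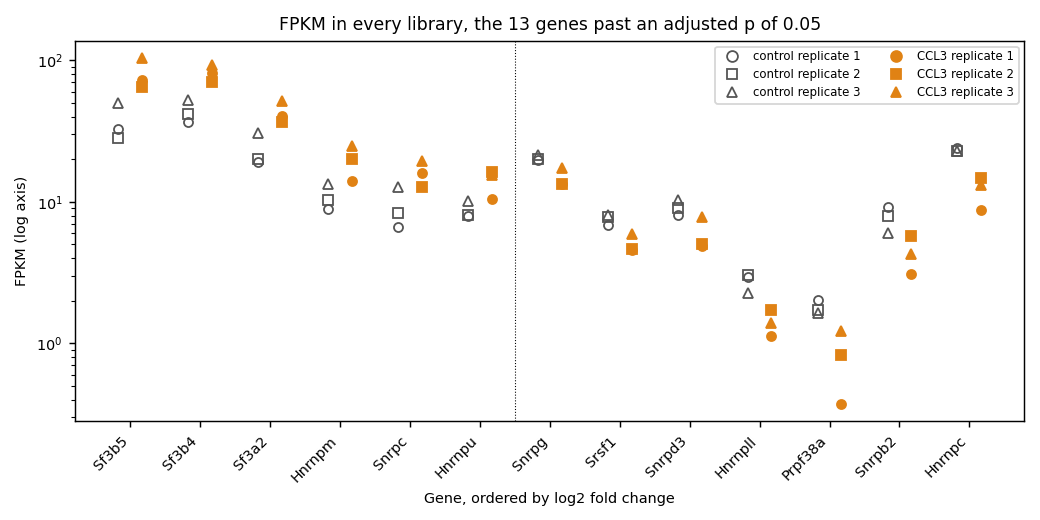
FPKM (log axis) in each of the 6 libraries for the 13 genes past an adjusted p of 0.05, ordered by log2 fold change; open grey symbols are control and filled orange symbols CCL3, with the shape giving the replicate number. The groups do not overlap for any of the 13, and the gap between them is narrow for Snrpb2 (6.01 against 5.71 FPKM), Snrpc (12.7 against 12.8 FPKM), Hnrnpu (10.1 against 10.5 FPKM) and Hnrnpm (13.4 against 14.1 FPKM).

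Estimates for the Sm ring genes lay on both sides of 0, 3 above and 4 below. None of the 7 tested rose, 2 fell, and 5 did not pass, where 18% of all tested genes rose and 14.5% fell. The median log2 fold change was -0.003. Snrpd3 fell from 9.15 ± 1.13 to 5.89 ± 1.63 FPKM (SD, n = 3 per group; log2 fold change -0.58 ± 0.19 SE, limma adjusted p = 0.0488), and its libraries stood at 8.07, 9.06 and 10.3 FPKM against 4.86, 5.04 and 7.77 FPKM. Snrpg fell from 20.3 ± 0.834 to 14.7 ± 2.22 FPKM (SD, n = 3 per group; log2 fold change -0.45 ± 0.14 SE, limma adjusted p = 0.0439), with control at 19.7, 19.98 and 21.3 FPKM and CCL3 at 13.5, 13.4 and 17.3 FPKM. In both, CCL3 replicate 3 lay nearest to control. Leaving out any library other than CCL3 replicate 3 ended both calls, with adjusted p from 0.0778 to 0.137 for Snrpd3 and from 0.0857 to 0.139 for Snrpg, and after removal of the GC trend neither passed (adjusted p = 0.222 and 0.277). Quantile normalization ended the call of Snrpd3 (-0.54, adjusted p = 0.0526), and limma-voom on recovered fragments that of Snrpg (-0.48, adjusted p = 0.0518). Snrpd3 shares 6.74% of its exonic length with the opposite-strand gene Gucd1, which averaged 4.03 FPKM in control and 3.89 FPKM with CCL3.

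Snrpb, the most abundant of all 68 genes, had 116, 126 and 197 FPKM in control and 230, 190 and 355 FPKM with CCL3. Control replicate 3 lay above CCL3 replicate 2, so the groups overlapped, and the log2 fold change of 0.81 ± 0.28 SE did not pass (limma adjusted p = 0.0559). Leaving out control replicate 3 brought it past the threshold (1.04, adjusted p = 0.0176), as did leaving out CCL3 replicate 2 (0.9996, adjusted p = 0.0451). The other single omissions did not (adjusted p from 0.101 to 0.165). Snrpd2 (log2 fold change 0.63 ± 0.26 SE), Snrpe (0.38 ± 0.27 SE), Snrpf (-0.003 ± 0.26 SE) and Snrpd1 (-0.47 ± 0.34 SE) did not pass either. For Snrpe a pseudogene named Snrpert in the table, with between 10.2 and 16.7 FPKM in control and between 15.03 and 21.0008 FPKM with CCL3, adds uncertainty, because no source used here states how reads that match several places were handled. Snrpn, the tissue-restricted relative of Snrpb known from neurons, had 1 fragment in CCL3 replicate 2 and 0 in the other libraries.

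For U1, 1 of 2 tested genes rose, where 18% of all tested genes rose. Snrpc, which stabilises pairing of U1 with the intron start, had 6.66, 8.28 and 12.7 FPKM in control and 15.9, 12.8 and 19.4 FPKM with CCL3. Control replicate 3 and CCL3 replicate 2 nearly met. The log2 fold change was 0.76 ± 0.24 SE (limma adjusted p = 0.0419), and the call was lost without control replicate 1 or 2 or CCL3 replicate 1 or 3 (adjusted p = 0.129, 0.130, 0.0941 and 0.122). It was also lost with plain totals (0.44, adjusted p = 0.156) and with TPM scaling (0.28, adjusted p = 0.349). Snrpa, which binds a stem loop of U1 RNA, did not pass at 0.36 ± 0.20 SE. Neither tested U2AF gene passed. U2af1, which reads the AG at the end of the intron, had 27.5, 30.003 and 43.0 FPKM in control and 24.2, 26.1 and 44.3 FPKM with CCL3 (log2 fold change -0.11 ± 0.26 SE, limma adjusted p = 0.768). U2af2, which binds the pyrimidine tract before it, had 41.3, 44.3 and 68.3 FPKM in control and 66.3, 52.3 and 102 FPKM with CCL3 (0.49 ± 0.28 SE, limma adjusted p = 0.196). For both, replicate 3 was the highest library of each group and the groups overlapped.

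None of the 5 tri-snRNP genes passed, where 32.4% of all tested genes did. Prpf8, the scaffold around the catalytic RNA, had 42.2, 46.6 and 46.5 FPKM in control and 42.0, 33.2 and 33.3 FPKM with CCL3. CCL3 replicate 1 nearly reached the control range, and the log2 fold change was -0.32 ± 0.14 SE (limma adjusted p = 0.116). Prpf6, which bridges the parts of the tri-snRNP, lay between 13.4 and 15.1 FPKM in control and between 14.5 and 16.4 FPKM with CCL3 (0.11 ± 0.13 SE, limma adjusted p = 0.546). Prpf3, Prpf31 and Prpf4 stood at 0.30 ± 0.15 SE, 0.01 ± 0.23 SE and -0.20 ± 0.13 SE. Of the 7 other tested Prpf genes 1 fell, where 14.5% of all tested genes fell. Prpf38a, part of the complex before activation, had 2.03, 1.72 and 1.63 FPKM in control and 0.372, 0.824 and 1.22 FPKM with CCL3. The groups did not overlap, at low levels (134 fragments per library on average). Its log2 fold change was -0.66 ± 0.19 SE (limma adjusted p = 0.0357), and it was lost with a pseudocount of 0.1 (-1.18, adjusted p = 0.0503), with quantile normalization (-0.59, adjusted p = 0.0712) and without control replicate 1 or 2 or CCL3 replicate 1 or 2 (adjusted p = 0.112, 0.104, 0.0685 and 0.0654). Prpf19, the ubiquitin ligase of the activation complex, had a log2 fold change of 0.10 ± 0.24 SE, and Prpf18, Prpf38b, Prpf40b and Prpf4b ranged from -0.10 to 0.19.

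Among SR proteins 1 of 10 tested genes fell, 0 rose, and 9 did not pass, while 14.5% and 18% of all tested genes fell and rose. Estimates were below 0 for 8 of the 10, with a median log2 fold change of -0.33. Srsf1, the founding member of the family, had 6.84, 7.78 and 8.02 FPKM in control and 4.55, 4.62 and 5.96 FPKM with CCL3, without overlap (ENSMUSG00000018379, chromosome 11, 88047373 to 88053755). It fell by a log2 fold change of -0.51 ± 0.15 SE (limma adjusted p = 0.0341). The call was lost when any 1 library other than CCL3 replicate 3 was left out (adjusted p from 0.0695 to 0.135), and after removal of the GC trend (-0.46, adjusted p = 0.0732).

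Srsf7 had the largest standard error of the SR genes, with 13.8, 13.9 and 27.1 FPKM in control and 8.50, 8.74 and 17.6 FPKM with CCL3. Replicate 3 was well above its companions in both groups, and the log2 fold change of -0.62 ± 0.33 SE did not pass (limma adjusted p = 0.180). Srsf3, which regulates its own splicing, had 8.09, 7.89 and 10.03 FPKM in control and 4.74, 4.85 and 9.25 FPKM with CCL3. Its log2 fold change was -0.46 ± 0.24 SE (limma adjusted p = 0.167). Leaving out CCL3 replicate 3 gave -0.73 (adjusted p = 0.0222), while no other single omission passed (adjusted p from 0.236 to 0.383). Srsf2 did not pass (0.01 ± 0.26 SE, limma adjusted p = 0.978), at 19.8, 24.8 and 37.3 FPKM in control and 27.0, 20.5 and 33.7 FPKM with CCL3. Of its exonic length, 15.6% is shared with Mettl23 and 9.74% with Mfsd11 on the opposite strand. Srsf5 (-0.50 ± 0.17 SE) and Srsf6 (-0.38 ± 0.13 SE) had CCL3 libraries entirely below control but did not pass (limma adjusted p = 0.0567 and 0.0583). The most abundant SR gene, Srsf9, stood at 72.1 ± 7.93 FPKM in control and 79.2 ± 11.01 FPKM with CCL3 (SD, n = 3 per group).

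Of 18 tested hnRNP genes 2 were higher and 2 lower, beside 18% and 14.5% of all tested genes, and the median log2 fold change was 0.02. Hnrnpc, whose protein sorts transcripts by length and masks cryptic exons, had the lowest estimate of all 62 genes on the log2(FPKM + 1) scale (ENSMUSG00000060373, chromosome 14, 52073377 to 52104028). It had 24.2, 23.0 and 22.7 FPKM in control and 8.75, 14.8 and 13.1 FPKM with CCL3. Control libraries were nearly level and every CCL3 library was lower. With a pseudocount of 0.1, which weighs low genes more, Prpf38a lay lower (-1.18 against -0.96 for Hnrnpc). The mean went from 23.3 ± 0.797 to 12.2 ± 3.13 FPKM (SD, n = 3 per group), a log2 fold change of -0.91 ± 0.19 SE (limma adjusted p = 0.0107). Hnrnpc passed as lower in all 19 alternatives, with log2 fold changes from -1.46 to -0.70.

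Hnrnpll, known in T cells for exon exclusion in the transcript of the phosphatase CD45, had 2.93, 3.03 and 2.28 FPKM in control and 1.12, 1.73 and 1.39 FPKM with CCL3. The groups did not overlap, and the log2 fold change was -0.64 ± 0.16 SE (limma adjusted p = 0.0199). Without control replicate 1, control replicate 2 or CCL3 replicate 3 the adjusted p was 0.0743, 0.0975 and 0.0528. Its paralog Hnrnpl did not pass (-0.42 ± 0.19 SE, limma adjusted p = 0.115), at 33.6 to 45.4 FPKM in control and 23.2 to 34.9 FPKM with CCL3.

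Hnrnpm, a repressor and activator of exons that is also known to hold back splicing of inflammatory transcripts in macrophages, had 8.84, 10.2 and 13.4 FPKM in control and 14.1, 19.9 and 24.7 FPKM with CCL3. All CCL3 libraries lay above control, with CCL3 replicate 1 close to control replicate 3. Its log2 fold change was 0.78 ± 0.23 SE (limma adjusted p = 0.0330). Hnrnpm shares 1169 exonic bases in GENCODE M21 with March2, a gene on the same strand that averaged 11.1 FPKM in control and 19.3 FPKM with CCL3, so the levels of these genes are uncertain. The length behind its FPKM is 4701 bases, which is not the union of its exons in that annotation. Hnrnpu, a nuclear matrix protein, had 7.88, 8.05 and 10.1 FPKM in control and 10.5, 16.1 and 15.6 FPKM with CCL3 (0.63 ± 0.19 SE, limma adjusted p = 0.0379). Both calls were lost without control replicate 1 or 2 or CCL3 replicate 2 or 3, with adjusted p of 0.104, 0.105, 0.0788 and 0.0932 for Hnrnpm and 0.116, 0.133, 0.0979 and 0.108 for Hnrnpu. With plain totals the log2 fold changes were 0.45 and 0.30 and did not pass (adjusted p = 0.128 and 0.240), nor did they with TPM scaling (0.29 and 0.14, adjusted p = 0.287 and 0.583).

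Hnrnpa1, an abundant shuttling hnRNP that favours exon skipping, had 7.52, 10.1 and 13.5 FPKM in control and 14.3, 15.5 and 26.4 FPKM with CCL3. The groups did not overlap, yet the log2 fold change of 0.78 ± 0.27 SE fell short of the threshold (limma adjusted p = 0.0569). It passed without control replicate 3 (0.97, adjusted p = 0.0261), but not without any other single library (adjusted p from 0.0599 to 0.166). Its relative Hnrnpa2b1 did not pass (-0.10 ± 0.22 SE, limma adjusted p = 0.744), at 20.8, 24.4 and 29.0 FPKM against 16.7, 24.3 and 29.2 FPKM. Hnrnpk, a poly-C binding protein, was the steadiest of the hnRNP genes in control at 22.7, 23.0 and 22.6 FPKM, and stood at 19.3, 24.7 and 21.7 FPKM with CCL3 (-0.06 ± 0.14 SE, limma adjusted p = 0.756). The remaining hnRNP genes ranged from -0.42 for Hnrnpdl to 0.44 for Hnrnph2.

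Because every level depends on how a library is scaled, the share of each role in the summed FPKM of the 68 genes was computed within each library, where the divisor of the library cancels. SR genes held 13.7%, 13.7% and 13.1% of the sum in control and 10.8%, 10.4% and 9.66% with CCL3. U2 snRNP genes held 18.7%, 17.9% and 17.5% in control and 22.5%, 23.3% and 21.5% with CCL3. Neither pair of ranges overlapped. The larger U2 share lay in the genes already called as higher. Sf3b5 held 2.30% to 3.15% in control and 4.88% to 5.35% with CCL3. Sf3b4 held 3.17% to 3.39% and 4.81% to 5.43%, and Sf3a2 1.63% to 1.93% and 2.67% to 2.73%. Shares of the remaining U2 genes overlapped or were smaller with CCL3, so the U2 share adds nothing independent to those calls. The hnRNP genes held 31.9%, 32.1% and 29.7% against 27.0%, 28.9% and 25.4%, without overlap, and the Sm genes 19.1%, 19.5% and 22.6% against 23.9%, 21.9% and 27.7%, with overlap. Separation was not particular to these roles. U1 shares were higher with CCL3 (2.24% to 2.70% against 2.92% to 3.02%). Shares of tri-snRNP genes (5.03% to 6.10% against 3.43% to 4.90%) and of other Prpf genes were lower, also without overlap. U2AF shares overlapped. Among single tested genes of the whole series, 48.6% had FPKM ranges without overlap. That figure is for single genes scaled by the divisor. No background for shares of summed groups was computed. Shares of 1 sum are tied to each other, so a larger share for Snrpb (10.04% to 12.5% in control and 14.2% to 18.2% with CCL3) lowers the others.

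**Figure D4:**
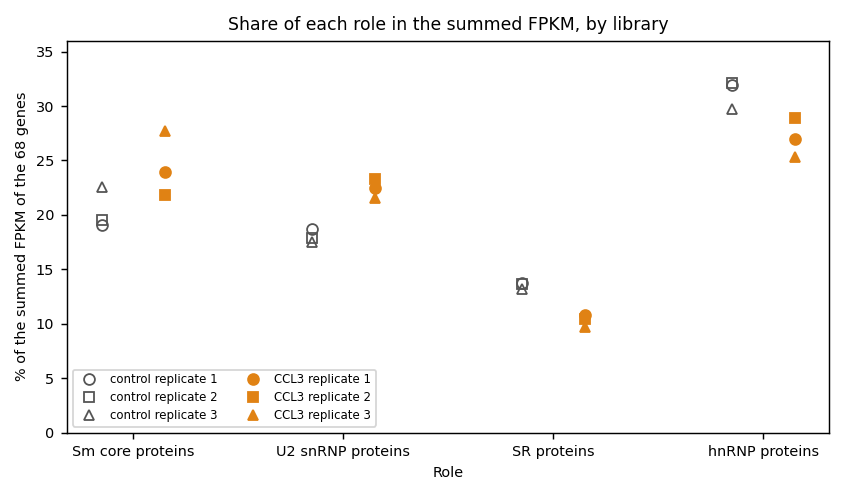
Share of the summed FPKM of the 68 genes held by each of 4 roles (y axis, in percent) in each library; open grey symbols are control and filled orange symbols CCL3. SR shares lie between 13.1% and 13.7% for control libraries and between 9.66% and 10.8% for CCL3 libraries. U2 shares lie between 17.5% and 18.7% and between 21.5% and 23.3%.

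Replicates numbered 3 stood apart for these genes. Control replicate 3 was the highest control library for 41 of the 62 genes, or 66.1%, against 46.2% of all tested genes, and CCL3 replicate 3 the highest CCL3 library for 45, or 72.6%, against 38.8%. Summed over the 68 genes, control libraries held 1160, 1233 and 1580 FPKM and CCL3 libraries 1498, 1337 and 1945 FPKM. These sums depend on the authors' divisor. Counted as plain fragments, the genes took up 0.484%, 0.541% and 0.650% of control replicates 1 to 3. For CCL3 replicates 1 to 3 the figures came to 0.475%, 0.462% and 0.548%. Replicate 3 stayed highest in each group, but this percentage did not rise with CCL3 as the FPKM sums did. Proliferation genes followed the same order of libraries as the FPKM sums of the 68 genes. Both sums depend on that divisor, and the fragment percentages of the 68 genes had another order. The summed FPKM of 14 markers stood at 139, 178 and 447 in control and 428, 282 and 632 with CCL3. Of these 14 markers 3 rose, 0 fell and 11 did not pass, where 18% of all tested genes rose and 14.5% fell. Those that rose included Mki67 (1.65 ± 0.28 SE, limma adjusted p = 0.00549) and Tk1 (2.15 ± 0.58 SE, limma adjusted p = 0.0269). All 14 had estimates above 0, with a median log2 fold change of 0.90. The part of proliferation in the changes of the splicing genes was not tested. With replicate 3 of each group removed, an alternative chosen after seeing the data, 8 of the 62 genes were higher and 10 lower, and 11 of the 13 calls were among them. The lower share of 16.1% then stood above the 10.97% of all genes tested, the reverse of the order in the main fit, and the higher share of 12.9% below 17.8%.

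**Figure D5:**
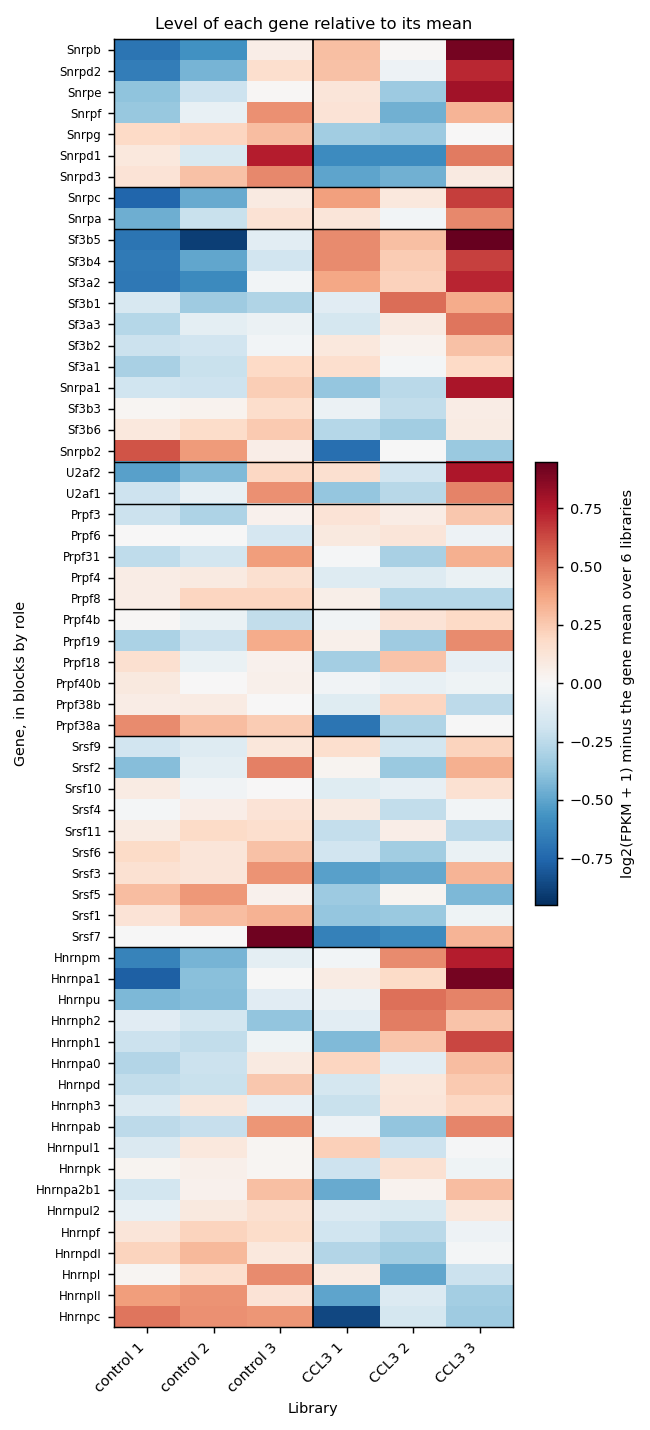
Level of 61 of the 62 tested genes in each library as log2(FPKM + 1) minus the mean of the gene over the 6 libraries (red above, blue below), in blocks by role. Of the genes drawn, control replicate 3 is redder than the other control libraries in 41 and CCL3 replicate 3 redder than the other CCL3 libraries in 44.

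Macrophage markers summed to 16818 to 28677 FPKM in control and 10815 to 15290 FPKM with CCL3, with 2 of 9 higher (Cd68 and Mrc1) and 2 lower (Cd14 and Lyz2). Markers of other cell types gave far lower sums. Dendritic cell markers summed to 2.49 to 4.41 FPKM in control and 7.88 to 9.70 FPKM with CCL3, with 3 of 7 tested and all 3 higher, while Flt3, Xcr1, Clec9a and Zbtb46 stayed at or below 0.246 FPKM in each library. Fibroblast markers summed to 2.14 to 4.20 FPKM and 5.25 to 8.24 FPKM, with Col1a1 and Col1a2 higher, Lum at 0 and Dcn at 0 in control. Neutrophil markers summed to 16.1 to 34.3 FPKM and 26.4 to 46.8 FPKM with 1 of 2 tested higher and Ly6g at 0, and T cell markers to at most 0.0611 FPKM. B cell markers summed to 2.15 to 2.59 FPKM and 1.86 to 3.37 FPKM, with 0 of 1 tested called. Fewer cells of a type and less RNA per cell cannot be told apart in these bulk libraries, and the part of other cells in the results was not tested.

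What the called genes shared beyond their names was examined in their GC content and length. The 7 that fell had longest transcripts with 39.3% to 47.7% GC (median 40.7%), the 6 that rose 40.9% to 62.2% (median 47.6%), and the 49 others 37.1% to 57.0% (median 46.4%). Across the 62 genes the log2 fold change had a Pearson correlation of 0.32 with GC content, against 0.35 across 9212 tested genes. The correlation with log2 gene length was -0.05 across the 62 genes and -0.17 across all. These are correlations across genes that share the same 6 libraries. With the GC trend removed, an alternative chosen after seeing the data, 10 of the 62 genes were higher and 7 lower, and 5 of the 6 rises and 4 of the 7 falls were among them. The higher share of 16.1% then stood above the 12.96% of all genes tested, the reverse of the order without this step, and the lower share of 11.3% below 13.4%.

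Below the filter were Hnrnpa3, a paralog of Hnrnpa1, at 0.706 ± 0.139 FPKM in control and 1.19 ± 0.506 FPKM with CCL3, and Hnrnpr, at 0.832 ± 0.115 and 0.998 ± 0.235 FPKM (SD, n = 3 per group). Hnrnpr has an exonic length of 22199 bases in the table, the union of its annotated exons, so its FPKM understates a shorter transcript. Prpf39, which acts with U1 at alternative intron starts, lay between 0.144 and 0.236 FPKM. U2af1l4 had 2 libraries above 0 with at most 0.112 FPKM, and Srsf12 had 0 fragments in all 6 libraries.

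Genes of the wider splicing machinery, from lists outside the name rule, also held calls in both directions, and are to be read beside the 18% of all tested genes that rose and the 14.5% that fell. Of 64 tested spliceosome and assembly genes 6 rose and 5 fell, with a median log2 fold change of -0.03. Lsm4, of the ring on U6 RNA, had 94.4, 94.4 and 164 FPKM in control and 235, 207 and 379 FPKM with CCL3 (1.21 ± 0.29 SE, limma adjusted p = 0.0168), and Ik, of the complex before activation, 18.3, 20.3 and 19.4 against 27.1, 52.0 and 43.7 FPKM (0.996 ± 0.23 SE, limma adjusted p = 0.0143). Zmat2 and Smu1, from the same stage of assembly as Ik, fell by log2 fold changes of -1.18 ± 0.17 SE and -0.93 ± 0.20 SE (limma adjusted p = 0.00403 and 0.0129). Of 36 other splicing regulators 0 rose and 2 fell, Celf1 (-0.84 ± 0.15 SE) and Tial1 (-0.47 ± 0.14 SE), with limma adjusted p of 0.00633 and 0.0349. Among kinases that phosphorylate SR proteins 1 of 5 fell, Clk3 (-0.46 ± 0.15 SE, limma adjusted p = 0.0452), and among 9 genes of the exon junction complex and export 1 fell, the cap-binding gene Ncbp1 (-0.70 ± 0.15 SE, limma adjusted p = 0.0110). Of the 6 tested Snrnp genes 1 fell, the tri-snRNP gene Snrnp27 (-0.83 ± 0.15 SE, limma adjusted p = 0.00658), and Snrnp70, the U1 protein that SR proteins contact, had 19.3, 21.9 and 27.8 FPKM in control and 21.2, 18.3 and 32.4 FPKM with CCL3 (0.03 ± 0.23 SE, limma adjusted p = 0.925).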

How the data were processed

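The authors deposited 1 table of FPKM per gene for 6 libraries, with the gene length used; the submitters' processing notes name the build mm10, and no source used here names the aligner or the counter. The deposited FPKM times gene length came out as whole multiples of 1 fragment in 100% of values (tolerance 0.02), which gave each library's fragment total. The authors' divisor equals median-ratio size factors times the geometric mean of the totals. The gene length equals the union of GENCODE M21 exons for 62 of the 68 genes.

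Genes averaging 1 FPKM or more across the 6 libraries were tested on log2(FPKM + 1) with limma 3.58.1 (R 4.3.3), with a variance trend, two-sided, and Benjamini-Hochberg adjustment over all 9218 genes at a threshold of 0.05. A fold change on this scale understates the change of low genes. With 3 libraries per group an exact permutation test of 1 gene cannot go below 0.1, so none was used. The procedure was first tested on simulated data, with independent libraries and the same relative spread beyond counting noise for every gene. That test does not give the error rate in the real libraries. Other tools were Python 3.11.15, pandas 2.3.3 and numpy 2.4.6.

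The genes and lists were chosen with earlier results of these data known. Named genes were the called genes with the largest changes in each role (up to 4), the 2 most abundant where none was called, a fixed set of well-known factors, all genes below the filter, and up to 2 called genes in each direction of each context list; further genes were named after their values were seen. Alternatives changed the pseudocount, filter, scaling, tool, gene length or GC trend, replicate block or libraries. Of the tested genes, 1 is included in the counts but not reported here. No 2 libraries of a group agreed within counting noise.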

Additional observations from a re-analysis of the deposited data

How the results depend on the processing

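The 6 higher and 7 lower genes became 1 and 27 with TPM scaling, 2 and 20 with plain fragment totals, and 1 and 1 with no filter on low values, which tests more genes. The higher count was 10 after removal of the GC trend and 10 after removal of GC and length trends, both added after the data had been seen. The median log2 fold change was -0.51 with TPM scaling and -0.31 with plain totals, and 4493 genes in all passed with TPM scaling against 2990. Leaving out 1 library at a time gave 1 to 9 higher and 1 to 6 lower genes, medians from -0.10 to 0.09, and 1128 to 3142 genes in all. Median-ratio scaling equalled the deposited values. Apart from the constructions named, the cause was not tested.

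With the replicate number as a block, 10 genes were higher and 12 lower, among them all 13 called without it. These were 16.1% and 19.4% of the 62 genes, against 23.9% and 18.4% of all tested genes. Same-numbered libraries deviated together for numbers 2 and 3 (r = 0.39 and 0.50 over 9218 genes) but not for number 1 (r = -0.06), and control replicate 1 correlated best with CCL3 replicate 2 (r = 0.41), so the numbers were not taken to pair the libraries.

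Over 25 named genes and 19 alternatives, 472 values were computed: 361 stayed on the same side of the threshold, 34 newly passed and 77 no longer passed. No call reversed, though for the called genes many alternatives could not change the sign, and 22 values changed sign in genes that did not pass either way. Depth limited Prpf38a most among called genes, with 32 to 224 fragments per library.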
